A study of Rattus with 9 samples.

Results

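The 9 genes described here, of 23836 gene symbols in the rat single-cell data, encode complement components and receptors: C1qa, C1qb and C1qc (the chains of C1q), C1r, C1s, C3, Cfb, C3ar1 and C5ar1. They were taken by symbol, and every sample was used. Complement is a cascade of plasma and tissue proteins. In the classical pathway C1q recognises a target and carries the proteases C1r and C1s, which cleave downstream components. All pathways meet at C3, and factor B (Cfb) joins cleaved C3 to form the convertase of the alternative pathway. Cleavage releases the small peptides C3a and C5a, which are sensed by the receptors C3ar1 and C5ar1, mainly on myeloid cells. Hepatocytes make most plasma complement, while macrophages, fibroblasts and epithelial cells make it locally.

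Bile ducts were profiled by droplet single-cell RNA sequencing in 9 samples: 3 sham samples, 3 ctrl samples (liver transplantation, LT, with ischemic injury) on days 1, 3 and 7 after LT, and 3 treat samples on the same days (the same LT with ligation of the splenic and gastroduodenal arteries to raise arterial flow). The labels do not define sham further, and strain, age and sex are not given in the sources used here. A sham sample is 1 library and a graft sample sums 3 libraries, except treat day 3 with 2. The labels do not say whether libraries came from separate rats, so p-values measure only the spread between these samples, which may be technical. The ctrl and treat groups each hold 3 days with 1 sample a day, so their spread includes the change over time.

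After filtering, 2277 to 31720 cells and 8972668 to 191639236 UMIs (unique molecular identifiers, each counting a captured RNA molecule) per sample remained. Clusters were formed without the complement genes and called by markers, for example BEC-like for biliary epithelial cells, EC-like and LEC-like for blood and lymphatic endothelium and VSMC-like for vascular smooth muscle cells. Levels are given as CPM, the UMIs of a gene per 1000000 UMIs of a class in a sample. Sham 1 stood apart, with 2277 cells, of which 37.8% were in unnamed clusters against 6.08% to 16.8% in the other samples. In ctrl day 3, 6548 barcodes were removed as rich in hemoglobin UMIs, so library 1 gave 6821 of its 7555 cells. Pairs of libraries shared up to 51 cell barcodes, and at most 1.24% of those of the smaller library. With all cells summed, fewer cells of a type and less RNA per cell cannot be told apart.

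The members differed in their source. C1q UMIs came mainly from macrophage-like cells, which held 82.1% of C1qa, 81.8% of C1qb and 82.4% of C1qc. The proteases came from stroma, with 92.9% of C1s and 79.2% of C1r UMIs in fibroblast-like cells. BEC-like cells held 78% of C3 UMIs. Cfb was spread over fibroblast-like (45.5%), BEC-like (19.5%) and monocyte-like cells (18.3%). The receptors were myeloid: C3ar1 UMIs lay in macrophage-like (58.8%) and monocyte-like cells (35.3%), and C5ar1 UMIs in monocyte-like (48.2%), macrophage-like (26.1%) and neutrophil-like cells (22.9%). With finer clusters (Leiden resolution 2) some of these shares changed. BEC-like cells then held 38.8% of C3 UMIs, and monocyte-like cells held 13.2% of C5ar1, 6.13% of C3ar1 and 10.8% of Cfb UMIs, with 43%, 24.3%, 32.9% and 18.1% in unnamed clusters. Macrophage-like cells held 71.4%, 68.2% and 69.6% of C1qa, C1qb and C1qc UMIs, with 25.4%, 28.5% and 27.2% in unnamed clusters. They also held the largest share of C5ar1 UMIs, 37.9%, and BEC-like cells held 10.2% of Cfb UMIs.

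**Figure D1:**
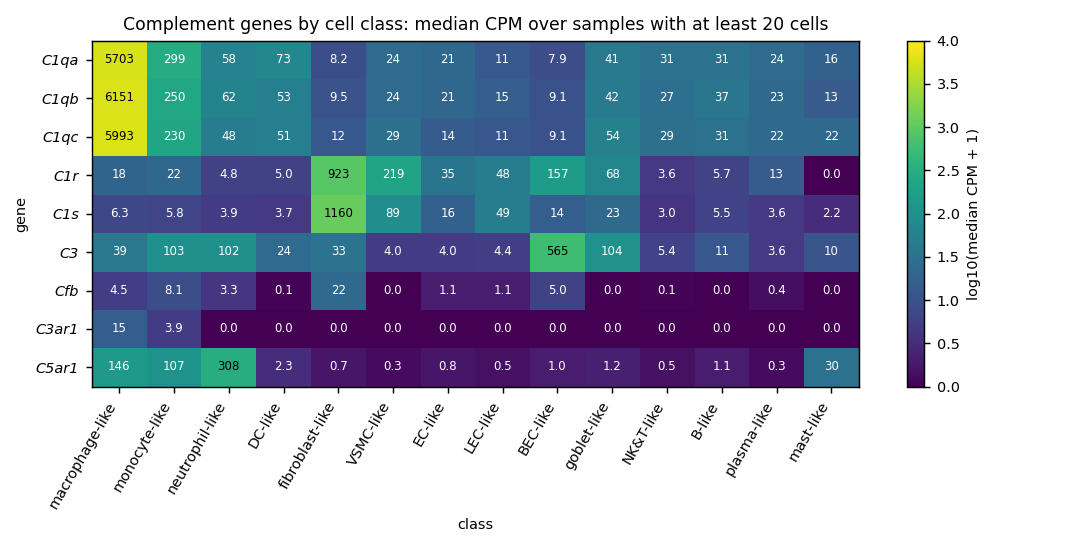
Median CPM (printed, and coloured on a log10 scale of CPM + 1) of the 9 complement genes in 14 cell classes, over the samples with at least 20 cells of a class. The C1q chains peak in macrophage-like cells, at 5703 CPM for C1qa, C1r and C1s in fibroblast-like cells, at 923 and 1159.9 CPM, and C3 in BEC-like cells, at 565 CPM.

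The orders of classes were as follows. C1qa was at a median of 5703 CPM in macrophage-like cells (range 3262 to 7558 over 9 samples) and 299 CPM in monocyte-like cells (97.9 to 795), with no overlap. C1s was at 1159.9 CPM (460.3 to 2526) in fibroblast-like cells, then 88.8 (26.5 to 619) in VSMC-like, 49.1 (18.8 to 943) in LEC-like and 16.3 (3.07 to 206) in EC-like cells, and the ranges of neighbouring classes overlapped. C1r was at 923 CPM (600.1 to 1777) in fibroblast-like, 219 (83.6 to 621) in VSMC-like and 157 CPM (25.5 to 267) in BEC-like cells, with overlap again between neighbours. C3 was at 565 CPM (141 to 1216) in BEC-like cells and 104 CPM (27 to 1465) in goblet-like cells, which overlapped. C5ar1 was at 308 CPM (167 to 452) in neutrophil-like, 146 (17.3 to 214) in macrophage-like and 107 CPM (89.5 to 269) in monocyte-like cells, with overlapping ranges.

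Free RNA gives UMIs in cells that do not express a gene. UMIs of all 3 C1q chains were found in 90.5% of macrophage-like, 9.21% of monocyte-like and 1.55% of NK&T-like cells (median UMIs per cell 6012.5, 4719 and 3341). A C3 UMI was found in 52.3% of BEC-like and 2.04% of NK&T-like cells, and a C5ar1 UMI in 45.4% of macrophage-like and 0.382% of NK&T-like cells. Tests within classes were kept to 32 pairs of member and class, in 9 classes, with at least 100 UMIs and a median of under 10% of them expected from empty barcodes. Every member had at least 2 such classes. The UMIs were counted over all samples, so a pair scarce in sham could meet the limit through the grafts alone, and the counts of pairs that passed are given as a description.

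Over all cells, 2 of the 9 members passed the test (adjusted p under 0.05, edgeR quasi-likelihood) between ctrl and sham, both higher, where 9.5% of 16127 genes passed. C5ar1 was at 10.9, 17.7 and 13.4 CPM in sham 1, 2 and 3, 50.5, 119.9 and 36.5 in ctrl on days 1, 3 and 7 and 36.2, 32.7 and 25.7 in treat on the same days. Its ctrl samples all lay above its sham samples, and the difference was log2 2.61 ± 0.44, adjusted p = 0.0205 (6.1-fold). C3 was at 99.97, 42.3 and 73.8 CPM in sham 1, 2 and 3, 181, 133 and 172 in ctrl on days 1, 3 and 7 and 155, 296 and 358 in treat on the same days. All 6 graft samples lay above all sham samples, with log2 1.56 ± 0.36, adjusted p = 0.0368 for ctrl and log2 2.22 ± 0.37, adjusted p = 0.0558 for treat against sham, the latter not past the threshold. Between treat and sham no member was called, nor any of the 16127 genes (0.0%), with 4 members and 3887 genes at an unadjusted p under 0.05. No member was called over all cells on any single day against sham (0 of 54 tests, 0.0% of all tests; 22 of the 54 and 17496 of 103644 at an unadjusted p under 0.05). No member was called in ctrl without ctrl day 3, sham 2 or sham 3, but there 0 of 16579, 16455 and 16473 genes were called. Leaving out ctrl day 1 or day 7 ended the call of C3, where 1253 of 16223 and 401 of 16158 genes passed.

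**Figure D2:**
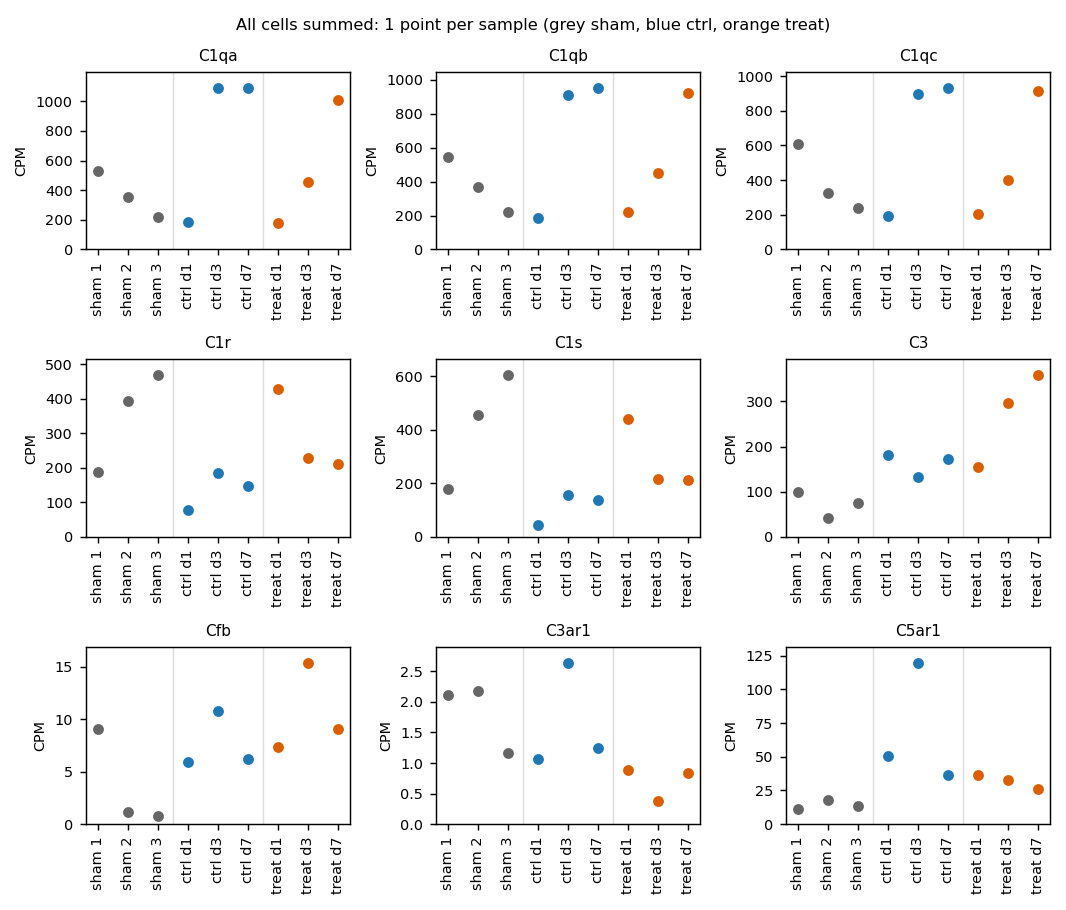
CPM of each complement gene with all cells of a sample summed (1 point per sample, grey sham, blue ctrl, orange treat, linear axes from 0). C3 and C5ar1 are higher in all 6 graft samples than in sham, C1s spans 45.2 to 604 CPM and the C1q chains are higher on day 7 than on day 1 in both graft groups.

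C1q, the recognition part of the classical pathway, was measured per macrophage-like cell sum at 5286, 3262 and 3694 CPM in sham 1, 2 and 3, 6302, 5703 and 7558 in ctrl on days 1, 3 and 7 and 5174, 6193 and 6729.5 in treat on the same days for C1qa. The ctrl samples lay above all sham samples, but treat day 1 lay below sham 1, and neither difference passed (log2 0.87 ± 0.28, adjusted p = 0.068 for ctrl and log2 0.80 ± 0.28, adjusted p = 0.107 for treat). C1qb differed by log2 0.63 ± 0.27, adjusted p = 0.135 for ctrl, and C1qc by log2 0.60 ± 0.29, adjusted p = 0.178. In this class most cells of sham 2 and 3 came from another cluster than those of sham 1 and the grafts. Cluster 20, led by Pf4, Clec10a and Mmp12, made up 95.1% and 95.4% of the class in sham 2 and 3, and cluster 5, led by Apoe and Lyz2, made up 98.5% of it in sham 1 and 85% to 99.8% in the graft samples. Within cluster 5, C1qa was at 5255, 5722 and 4465 CPM in sham and 5587 to 7575 in the grafts (log2 0.71 ± 0.25, adjusted p = 0.119 for ctrl). Within cluster 20 it was at 3124 and 3645 CPM in sham, 6593 and 6569.9 in ctrl days 3 and 7 and 3140.1 in treat day 1, and ctrl was higher than sham (log2 0.84 ± 0.17, adjusted p = 0.00805). C1qb rose there too (log2 0.54, adjusted p = 0.0431), and C1qc did not pass (log2 0.56 ± 0.20, adjusted p = 0.065). In these tests ctrl had 2 samples of 43 and 37 cells, and 23.5% of all genes passed.

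With all cells summed, C1qa was at 526, 353 and 218 CPM in sham 1, 2 and 3, 182, 1087 and 1089 in ctrl on days 1, 3 and 7 and 182, 454 and 1009.7 in treat on the same days. Its level on days 3 and 7 of ctrl and day 7 of treat was above every sham sample, and on day 1 of both below all of them. The difference of ctrl from sham was log2 1.48 ± 0.73, adjusted p = 0.208. Macrophage-like cells were 1.27%, 10.1% and 7.23% of cells in ctrl and 2.86%, 3.43% and 8.22% in treat on days 1, 3 and 7, and 2.94%, 13.6% and 8.6% in sham. Their share of the C1qa UMIs ran from 38.8% in sham 1 and 47.5% in ctrl day 1 to 94.6%. In those 2 samples 53.5% and 40.5% of C1qa UMIs lay in unnamed clusters. Of all unnamed cells, 24.6% had UMIs of all 3 C1q chains. Unnamed cluster 13, led by Fcgr3a, Aif1 and Lyz2, detected 5 of 13 macrophage markers. It had 315 cells in sham 1 and 620 in ctrl day 1, beside 67 and 162 macrophage-like cells. The macrophage-like percentages leave these cells out, and the part of cluster 13 in the C1qa levels was not tested.

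In monocyte-like cells C1qa was at 97.9, 443 and 205 CPM in sham 1, 2 and 3, 101, 299 and 526 in ctrl on days 1, 3 and 7 and 129, 457 and 795 in treat on the same days. Levels were higher on day 7 than on day 1 in both graft groups, while the sham samples, of 87 to 128 cells each, spread widely. Single days were compared with sham in a fit with 2 residual degrees of freedom, in which the lone sample of a day was taken to have the same spread as sham. C1qa rose on ctrl day 7 (log2 1.49 ± 0.38, adjusted p = 0.0069), treat day 3 (log2 1.32 ± 0.38, adjusted p = 0.0202) and treat day 7 (log2 1.93 ± 0.37, adjusted p = 4.95e-05, 3.82-fold). C1qb and C1qc rose on treat day 7, by 1.39 (adjusted p = 0.0244) and 1.61 (adjusted p = 0.00331) on the log2 scale. With days joined, C1qa did not pass (log2 0.58 ± 0.73, adjusted p = 0.68 for ctrl and log2 1.14 ± 0.73, adjusted p = 0.413 for treat). Of all genes in monocyte-like cells, 2.27%, 3.86% and 1.57% passed on ctrl day 7, treat day 3 and treat day 7.

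The monocyte-like clusters differed in C1qa. Over the samples with at least 20 cells of a cluster, it was at 246 to 1026 CPM in cluster 4, led by Lyz2 and Il1b, at 72.9 to 379 in cluster 8, led by RGD1559482 and Slpi, and at 5.57 to 177 in cluster 14, led by Tyrobp and Fcer1g. In each of the 9 samples those of the 3 clusters that could be compared kept this order. Clusters 4 and 8 detected 5 and 6 of 13 macrophage markers and 4 of 11 monocyte markers each. Their monocyte name came from 2 monocyte and 0 macrophage markers among the 10 leading genes, so the name is not firm. Cluster 4 made up 2.97% and 5.13% of monocyte-like cells on day 1 in ctrl and treat, 41% and 60.1% on day 7, and 14.6%, 62.1% and 65.6% in sham. Within cluster 4, ctrl and sham differed by log2 0.62 ± 0.51, adjusted p = 0.506, and treat and sham by log2 0.72 ± 0.50, adjusted p = 0.431. In cluster 14, which was 38.9% of the class on treat day 7, treat was lower than sham without passing, by log2 -0.997 ± 0.75, adjusted p = 0.639 for C1qa, log2 -1.53 ± 0.54, adjusted p = 0.24 for C1qb and log2 -1.99 ± 0.60, adjusted p = 0.204 for C1qc. At resolution 2, monocyte-like cells held 3436 C1qa UMIs (0.713% of all) in place of 38754 (8.05%), and C1qa UMIs in unnamed clusters were 25.4%. The summed level of the 14 macrophage markers in monocyte-like cells was 1556 to 2157 CPM in sham, 1801 to 2646 in ctrl and 1502 to 1790 in treat, with 9 to 13 of them detected per sample, and Cd163, Marco and Cd5l at 0 in every sham sample.

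**Figure D3:**
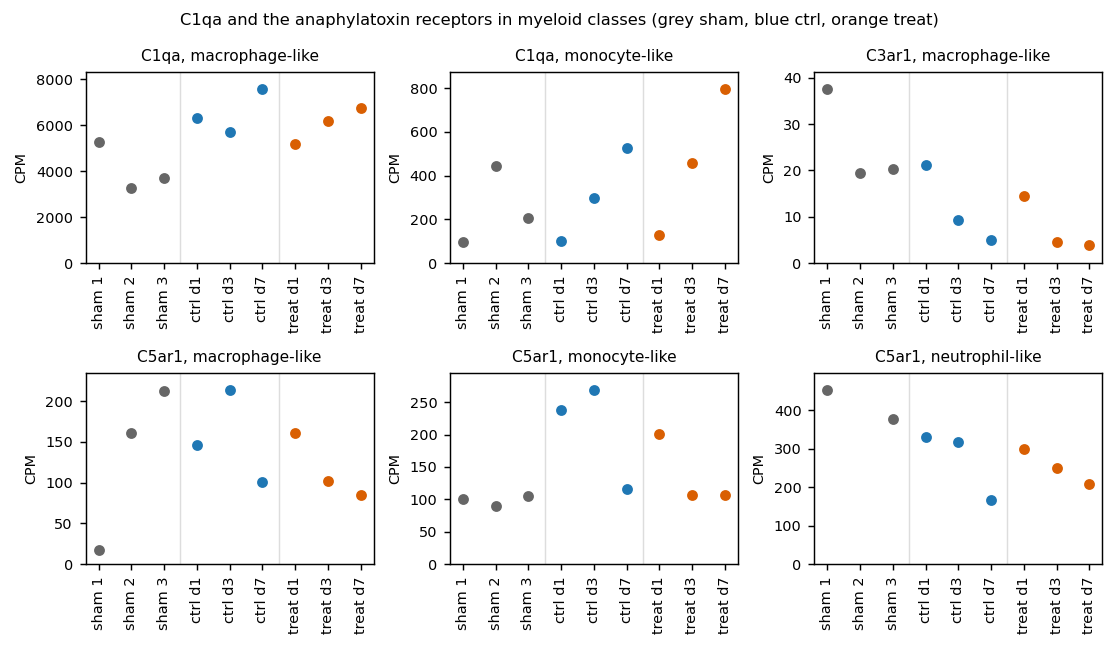
CPM of C1qa, C3ar1 and C5ar1 in myeloid classes (1 point per sample with at least 20 cells, grey sham, blue ctrl, orange treat, linear axes from 0). C1qa in monocyte-like cells reaches 795 CPM on treat day 7, and C3ar1 in macrophage-like cells is at 3.96 CPM there against 19.5 to 37.5 in sham.

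C1r and C1s, the proteases of the C1 complex, were at their highest in fibroblast-like cells. C1s was at 1999, 907 and 1159.9 CPM in sham 1, 2 and 3, 460.3, 851 and 1519 in ctrl on days 1, 3 and 7 and 979, 1832 and 2526 in treat on the same days. Levels were higher on day 7 than on day 1 in both graft groups, and sham 1, with 96 fibroblast-like cells, was above the other sham samples. The difference from sham was log2 -0.33 ± 0.45, adjusted p = 0.707 for ctrl and log2 0.60 ± 0.45, adjusted p = 0.666 for treat. C1r was at 1665, 708 and 815 CPM in sham 1, 2 and 3, 600.1, 815 and 1022 in ctrl on days 1, 3 and 7 and 923, 1393 and 1777 in treat on the same days, which differed from sham by log2 -0.16 ± 0.35, adjusted p = 0.827 for ctrl and log2 0.58 ± 0.35, adjusted p = 0.593 for treat. The clusters behind this class changed with time. Cluster 7 held 65.1% to 81.2% of it in sham, cluster 9 held 96.8% and 77.2% on day 1, and cluster 11 held 71.3% to 96.8% on days 3 and 7. Within cluster 11, C1s was at 518 and 827 CPM in sham 2 and 3 and at 1515 and 2556 CPM on day 7 of ctrl and treat. Its differences from sham there were log2 0.83 ± 0.59, adjusted p = 0.687 for ctrl and log2 1.47 ± 0.57, adjusted p = 0.377 for treat, and within cluster 7 treat and sham differed by log2 0.01 ± 0.40, adjusted p = 0.998.

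In VSMC-like cells both proteases were higher than sham on days 3 and 7 in both graft groups. C1s was at 26.5, 51.7 and 88.8 CPM in sham 1, 2 and 3, 41.3, 489 and 190.1 in ctrl on days 1, 3 and 7 and 75.1, 543 and 619 in treat on the same days. The 4 samples of days 3 and 7 lay above all sham samples, and the day 1 samples lay among them. Each single-day test set 1 sample against the sham samples with 2 residual degrees of freedom, so its p-value holds no spread of the day. The differences were log2 3.11 ± 0.40, adjusted p = 5.29e-07 on ctrl day 3, log2 1.91 ± 0.40, adjusted p = 0.000632 on ctrl day 7, log2 3.52 ± 0.39, adjusted p = 3.91e-10 on treat day 3 and log2 3.54 ± 0.39, adjusted p = 5.45e-10 on treat day 7, the last 11.6-fold. C1r was at 83.6, 95.6 and 157 CPM in sham 1, 2 and 3, 168, 516 and 304 in ctrl on days 1, 3 and 7 and 219, 611 and 621 in treat on the same days. It differed in the same 4 comparisons by 2.12, 1.52, 2.63 and 2.47 on the log2 scale, with adjusted p from 1.03e-07 to 0.00298. Of all genes in VSMC-like cells, 2.29%, 6.1%, 3.97% and 2.75% passed. Ctrl day 3 had 35 cells of this class and the other samples 70 to 464. With days joined none of these passed. C1s differed from sham by log2 2.06 ± 0.89, adjusted p = 0.267 for ctrl and log2 2.98 ± 0.90, adjusted p = 0.177 for treat, and C1r by log2 1.52 ± 0.46, adjusted p = 0.116 and log2 2.16 ± 0.46, adjusted p = 0.0849. The summed level of the 11 fibroblast markers was 1190 to 4095 CPM in sham, 1240 to 7612 in ctrl and 2741 to 5033 in treat, with 9 or 10 detected in each sample and Pdgfra at 0 in ctrl days 1 and 3. It was 2300.3 CPM in ctrl day 3, where C1s was at 489, and 7612 CPM in ctrl day 7, where C1s was at 190.1. The part of these markers in the result was not tested.

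**Figure D4:**
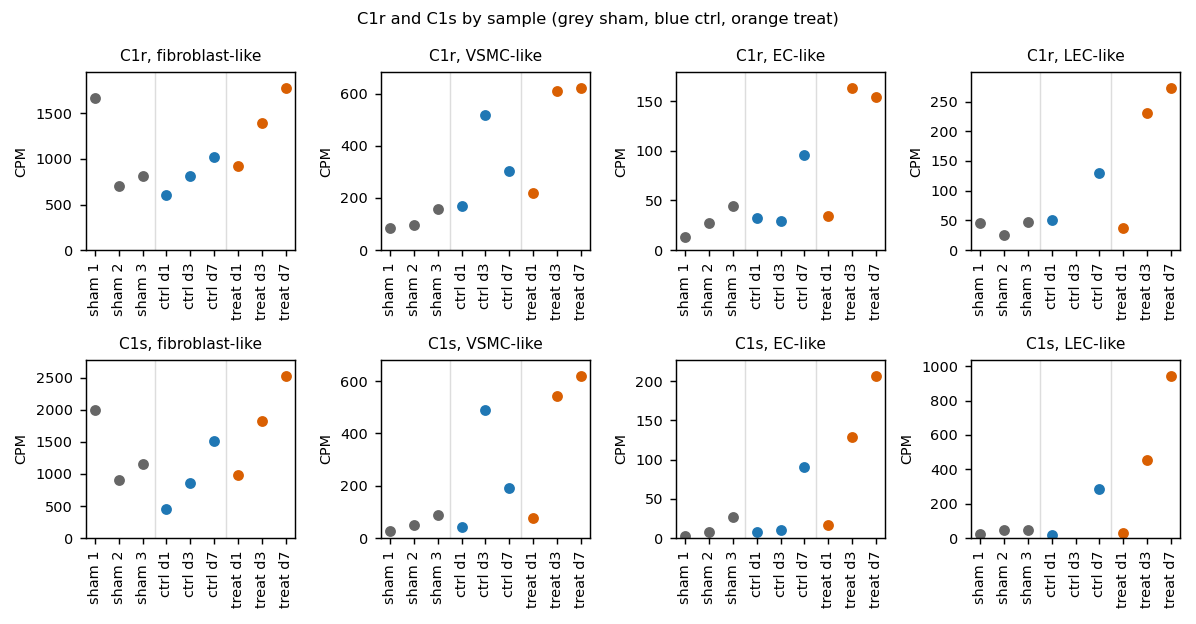
CPM of C1r and C1s in fibroblast-, VSMC-, EC- and LEC-like cells (1 point per sample with at least 20 cells, grey sham, blue ctrl, orange treat, linear axes from 0). Outside fibroblast-like cells, day 7 lies above every sham sample in both graft groups, while day 1 lies closer to sham than day 7 does.

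Lymphatic and blood endothelium also had their highest levels on day 3 or day 7. In LEC-like cells C1s was at 22.5, 49.5 and 48.7 CPM in sham, 18.8 and 283 in ctrl days 1 and 7 (day 3 had 19 cells and was not used) and 28.8, 456 and 943 in treat. It rose on ctrl day 7 (log2 2.89 ± 0.37, adjusted p = 0.00469), treat day 3 (log2 3.61 ± 0.36, adjusted p = 0.00112) and treat day 7 (log2 4.39 ± 0.37, adjusted p = 0.000454, 20.9-fold). C1r was at 45, 24.7 and 46.5 CPM in sham and at 130.0, 231 and 273 in these samples, and rose in the same 3 comparisons by 1.98, 2.84 and 2.80 on the log2 scale (adjusted p = 0.0305, 0.00311 and 0.00567). The shares of all genes that passed were 1.56%, 1.41% and 0.585%. The 11 fibroblast markers summed to 60.03 to 374.5 CPM in sham, 367.2 in ctrl day 7, 1917 in treat day 3 and 62.38 in treat day 7. Treat day 7 had 54 LEC-like cells, with Lum, Pdgfra, Mfap5 and Ogn at 0. The part of these markers in the result was not tested. With days joined no LEC-like difference passed, with log2 2.04 ± 1.15, adjusted p = 0.37 and log2 3.49 ± 1.12, adjusted p = 0.256 for C1s in ctrl and treat, and log2 1.46 ± 0.71, adjusted p = 0.307 and log2 2.29 ± 0.66, adjusted p = 0.205 for C1r.

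In EC-like cells C1s was at 3.07, 8.14 and 26.8 CPM in sham 1, 2 and 3, 7.82, 10.5 and 90.6 in ctrl on days 1, 3 and 7 and 16.3, 129 and 206 in treat on the same days. Ctrl day 7 and treat days 3 and 7 lay above all sham samples. The difference was log2 1.51 ± 1.12, adjusted p = 0.486 for ctrl and log2 3.22 ± 1.15, adjusted p = 0.434 for treat, and no EC-like comparison of C1r or C1s passed the test. The summed fibroblast markers were 102.7 to 1440 CPM in sham and 291.1 to 944.3 in the grafts. Free RNA was put at 3.33%, 2.6% and 3.93% of EC-like UMIs in sham 1, 2 and 3 and 3.91% in treat day 7. In empty barcodes C1s was at 73.3, 318 and 460 CPM in these sham samples and 143 CPM in treat day 7. C1s in EC-like cells had a median of 9.8% of UMIs expected from empty barcodes, near the limit of 10%. The part of free RNA in its sham levels was not tested. C1r in BEC-like cells was at 96.4, 160.3 and 157 CPM in sham 1, 2 and 3, 25.5, 155 and 267 in ctrl on days 1, 3 and 7 and 55.4, 192 and 249 in treat on the same days, with none of its differences past the threshold. In monocyte-like cells C1r was at 21.8, 12.8 and 8.79 CPM in sham 1, 2 and 3, 7.19, 27.8 and 25.1 in ctrl on days 1, 3 and 7 and 9.27, 43.2 and 35.4 in treat on the same days, from 3 to 8 UMIs per sham sample, and met the limit of 100 UMIs through the grafts, so its test on treat day 3 is given no weight.

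C3, the component on which all pathways meet, was higher in BEC-like cells of both graft groups. It was at 268, 141 and 233 CPM in sham 1, 2 and 3, 292, 635 and 665 in ctrl on days 1, 3 and 7 and 565, 924 and 1216 in treat on the same days. All 6 graft samples lay above all sham samples, and in each graft group the level was higher on day 7 than on day 1. C3 rose in ctrl (log2 1.53 ± 0.33, adjusted p = 0.0383, 2.89-fold) and in treat (log2 2.28 ± 0.34, adjusted p = 0.0368, 4.85-fold). In BEC-like cells 4.65% of genes passed in ctrl and 0.235% in treat. Over all 32 pairs, 2 passed in ctrl and 2 in treat, against 2.73% and 0.701% of all gene tests in the 9 classes. The other pair in both was Cfb in macrophage-like cells, which was scarce in sham. The C3 call in ctrl was lost without any of ctrl day 3, ctrl day 7 or sham 1, 2 or 3 (adjusted p = 0.0555 to 0.154), and in treat without any 1 of the 6 samples (adjusted p = 0.0559 to 0.204), with log2 differences of 1.33 to 1.80 and 2.07 to 2.49. Other settings that ended the call were resolution 2 in ctrl (adjusted p = 0.0559), library size in place of TMM in ctrl and treat (0.0785 and 0.0733), libraries as samples in both (0.121 and 0.0565) and only the 2 groups compared in ctrl (0.0575). The goblet markers in BEC-like cells summed to 3424 to 4024 CPM in sham, 4422 to 7776 in ctrl and 3943 to 7716 in treat, and their part in the result was not tested.

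The makeup of the BEC-like class moved with the days. Cluster 3, led by Agr2, Gpx2, Tff3 and Gkn3, was 15.4%, 5.87% and 2.79% of BEC-like cells in sham, 7.82%, 33.1% and 82.6% in ctrl and 6.78%, 70.5% and 83.1% in treat. It had high C3 in every group, 773, 822 and 1326 CPM in sham, 1094, 1683 and 755 in ctrl and 1519, 1081 and 1356 in treat. Within cluster 3 the groups overlapped, with log2 0.45 ± 0.33, adjusted p = 0.594 for ctrl and log2 0.62 ± 0.33, adjusted p = 0.573 for treat. Cluster 3 detected 13 of 13 BEC and 3 of 7 goblet markers, with 2 of each among its leading genes. At resolution 2 a cluster of 3767 cells led by Agr2 and Gkn3 stayed unnamed, with more goblet than BEC markers among its leading genes. The clusters with less C3 differed more. In cluster 17, led by Reg3g and Reg3b, C3 was at 179.7 and 244 CPM in sham and 309 to 826 in the grafts, and it rose in ctrl (log2 1.13 ± 0.26, adjusted p = 0.0363, 7.76% of genes) and treat (log2 1.68 ± 0.27, adjusted p = 0.0482, 0.339% of genes). In cluster 10, led by Lypd8, Wfdc21 and Krt7, it was at 4.66 to 22.4 CPM in sham and rose in ctrl (log2 2.90 ± 0.64, adjusted p = 0.0465, 2.14% of genes), with log2 2.16 ± 0.65, adjusted p = 0.213 for treat. In cluster 15, led by Gpx2 and Reg3g, it rose in treat (log2 2.30 ± 0.35, adjusted p = 0.0231, 0.629% of genes), with log2 1.15 ± 0.37, adjusted p = 0.122 for ctrl. The name of cluster 15 is not firm. It detected 3 of 13 BEC markers, with 2 BEC and 2 goblet markers among its leading genes and a median of 1433 UMIs. At resolution 2 a cluster of 3498 cells led by Gpx2 and Reg3g stayed unnamed. Cluster 17 detected 8 of 8 markers of cycling cells and 8 of 13 BEC markers. In cluster 19, which was 24.5% to 72.4% of BEC-like cells in sham and 0.912% to 7.51% in the grafts, C3 was at 126 to 319.7 CPM in sham and 636 to 1273 in the grafts, with log2 2.04 ± 0.39, adjusted p = 0.095 for ctrl and log2 2.10 ± 0.39, adjusted p = 0.152 for treat. These cluster tests were added after the data were seen.

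**Figure D5:**
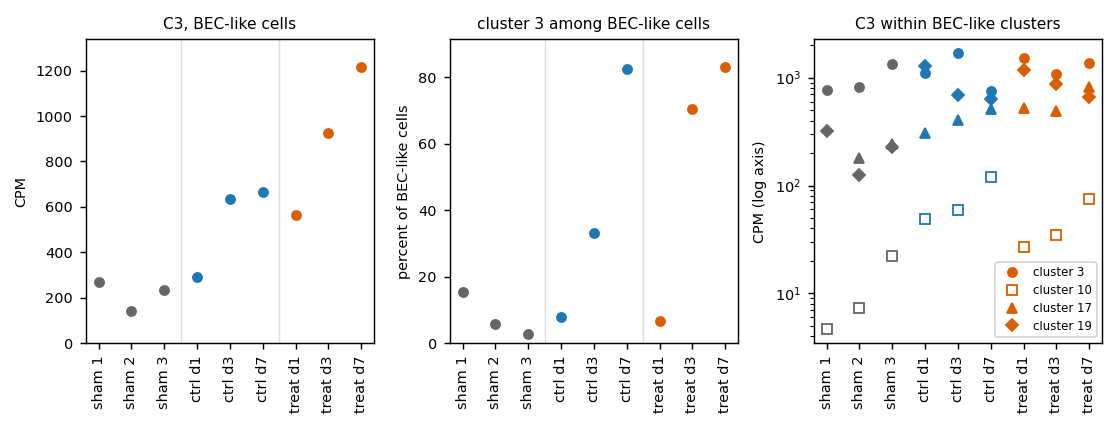
Left, C3 CPM in BEC-like cells by sample. Middle, cluster 3 as a percentage of BEC-like cells. Right, C3 CPM within 4 BEC-like clusters on a log axis (samples with at least 20 cells, grey sham, blue ctrl, orange treat). Cluster 3 grows from 2.79% in sham 3 to 83.1% of BEC-like cells on treat day 7, while its own C3 level overlaps between sham and graft samples.

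Goblet-like cells, which secrete mucins, also carried C3. It was at 27 and 44.3 CPM in sham 2 and 3 (2 and 4 UMIs), 79.4 and 924 in ctrl days 1 and 7 and 104, 743 and 1465 in treat. All graft samples used were higher than sham. This pair met the limit of 100 UMIs through the grafts, and each single-day test set 1 sample against 2 sham samples with 1 residual degree of freedom, since sham 1 and ctrl day 3 had too few cells, so their p-values are not given. The 13 BEC markers summed to 14893 and 15396 CPM in sham 3 and 2 and 9474 to 15386 CPM in the grafts in this class, and their part in the result was not tested. In goblet-like cells 5.59%, 1.78% and 3.09% of all genes were past the threshold on the treat days and 2.64% on ctrl day 7, which is the background only. With days joined, the differences were log2 3.85 ± 1.37, adjusted p = 0.803 for ctrl and log2 4.49 ± 1.34, adjusted p = 0.999 for treat, neither past the threshold. The goblet-like class depended on the clustering. At resolution 2 it had 222 cells with 6 C3 UMIs, in place of 1632 C3 UMIs here.

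In fibroblast-like cells C3 was at 64.4, 2.47 and 2.28 CPM in sham 1, 2 and 3, 9.94, 32.9 and 417 in ctrl on days 1, 3 and 7 and 20.9, 174 and 588 in treat on the same days. Day 7 of both graft groups and treat day 3 lay above every sham sample, but sham 1, with 50 C3 UMIs in 96 cells, lay above the other 3 graft samples. No comparison passed (log2 5.33 ± 1.57, adjusted p = 0.139 on ctrl day 7 and log2 5.83 ± 1.58, adjusted p = 0.137 on treat day 7). The 13 BEC markers in fibroblast-like cells summed to 234.4 CPM in sham 1 and 66.72 to 167.3 CPM in the other samples. Within cluster 11, C3 was at 3.35 and 3.98 CPM in sham 2 and 3, 426 in ctrl day 7 and 202 and 637 in treat days 3 and 7 (log2 6.03 ± 1.89, adjusted p = 0.265 for ctrl). In monocyte-like cells C3 was at 109, 166 and 114 CPM in sham and 42.9 to 164 in the grafts. In macrophage-like cells it was at 8.65, 36.9 and 40.6 CPM in sham 1, 2 and 3, 18.1, 21.4 and 109 in ctrl on days 1, 3 and 7 and 64.8, 39.2 and 106 in treat on the same days. In neutrophil-like cells it was at 18.1 and 216 CPM in sham 1 and 3 (2 and 8 UMIs) and 57 to 142 CPM in the grafts, and none of these passed.

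Cfb, factor B of the alternative pathway, was scarce in sham 2 and 3. With all cells summed it was at 9.03, 1.13 and 0.747 CPM in sham 1, 2 and 3, 5.9, 10.8 and 6.21 in ctrl on days 1, 3 and 7 and 7.32, 15.4 and 9.08 in treat on the same days. The graft samples lay above sham 2 and 3, while sham 1 lay within their range, and the differences were log2 1.63 ± 0.82, adjusted p = 0.213 for ctrl and log2 2.08 ± 0.82, adjusted p = 0.175 for treat. Without sham 1, the sham sample with the most Cfb, the all-cell difference passed in both (log2 3.32, adjusted p = 0.0154 and log2 3.76, adjusted p = 0.0453). Of 16417 genes, 1913 passed in ctrl and 103 in treat in that setting. In macrophage-like cells Cfb was at 0, 1.27 and 0.858 CPM in sham 1, 2 and 3, 4.53, 13.1 and 8.65 in ctrl on days 1, 3 and 7 and 3.26, 19 and 8.93 in treat on the same days. The sham samples held 0, 7 and 3 of the 540 UMIs, so the pair met the limit of 100 UMIs through the grafts, and all graft samples were higher. The tests of this pair are given no weight for that reason, so no p-value is printed, though it counts among the pairs past the threshold in ctrl and treat and on treat day 3, where 11.5%, 5.18% and 0.304% of genes passed. Within cluster 5 sham had 2 Cfb UMIs. The 11 fibroblast markers summed to 236.5 to 650.3 CPM in sham and 212.8 to 350.3 CPM in the grafts in macrophage-like cells. The 12 neutrophil markers summed to 37.5 to 86.4 CPM in sham, 137 to 323 in ctrl and 125 to 428 in treat, higher in every graft sample than in sham, and their part in the result was not tested.

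In fibroblast-like cells Cfb was at 21.9, 1.07 and 0.64 CPM in sham 1, 2 and 3, 24.1, 12 and 27.5 in ctrl on days 1, 3 and 7 and 11.9, 64.1 and 62.5 in treat on the same days. Sham 2 and 3 were below every graft sample, and sham 1 was not. No comparison passed, with log2 3.04 ± 1.35, adjusted p = 0.281 for ctrl and log2 4.11 ± 1.36, adjusted p = 0.294 for treat. In monocyte-like cells Cfb was at 5.44, 4.26 and 2.93 CPM in sham 1, 2 and 3, 8.1, 16.7 and 9.72 in ctrl on days 1, 3 and 7 and 4.37, 20.5 and 14.1 in treat on the same days. The sham samples held 1 or 2 UMIs each and the pair met the limit of 100 UMIs through the grafts, so its test on treat day 3 is given no weight. In BEC-like cells it was at 15 CPM in sham 1, 1.19 and 1.12 in sham 2 and 3 and 4.16 to 12.6 in the grafts.

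C3ar1, the C3a receptor, was the rarest member, with 946 UMIs in all cells kept. In macrophage-like cells it was at 37.5, 19.5 and 20.3 CPM in sham 1, 2 and 3, 21.1, 9.41 and 5.08 in ctrl on days 1, 3 and 7 and 14.6, 4.64 and 3.96 in treat on the same days. Treat day 1 and the 4 samples of days 3 and 7 lay below all sham samples, and ctrl day 1 lay among them. The differences were log2 -1.07 ± 0.52, adjusted p = 0.181 for ctrl and log2 -1.52 ± 0.51, adjusted p = 0.0929 for treat, and neither passed. Within cluster 20, C3ar1 was at 18.1 and 20.4 CPM in sham and 1 UMI and 0 UMIs remained in the 43 and 37 cells of ctrl days 3 and 7. It was lower in ctrl there (adjusted p = 0.00594), where 23.5% of all genes passed. With so few ctrl UMIs and cells, the size of the fall is not given. Within cluster 5 it was at 37.7, 44.2 and 19.3 CPM in sham and 3.97 to 22.9 in the grafts. In monocyte-like cells C3ar1 had 1, 5 and 2 UMIs in the sham samples, so the pair met the UMI limit through the grafts. Treat day 3 had 11 UMIs in 3872 cells, 0.592 CPM, and differed from sham by log2 -3.43 ± 1.08. With so few sham UMIs, the test on treat day 3 is given no weight, though the pair counts among those past the threshold.

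C5ar1, the C5a receptor, was at 101, 89.5 and 105 CPM in sham 1, 2 and 3, 238, 269 and 116 in ctrl on days 1, 3 and 7 and 201, 107 and 107 in treat on the same days in monocyte-like cells. Days 1 and 3 of ctrl and day 1 of treat lay clear of the sham samples, and the other graft samples were near them. It rose on ctrl day 1 (log2 1.66 ± 0.41, adjusted p = 0.0026) and day 3 (log2 1.56 ± 0.42, adjusted p = 0.013), where 7.65% and 2.33% of genes passed, and treat day 1 differed by log2 1.14 ± 0.42, adjusted p = 0.0947. The class was made up of different clusters. Cluster 8 was 90.7% and 63.2% of it on ctrl days 1 and 3 and 31.5%, 10.3% and 0.781% in sham. Within clusters 4 and 14, where ctrl and sham could be compared, the differences with days joined were log2 0.31 ± 0.31, adjusted p = 0.602 and log2 0.80 ± 0.36, adjusted p = 0.288. Neutrophil markers moved with it in monocyte-like cells. The 12 markers summed to 260.1 to 459.9 CPM in sham, 18535 and 18372 on day 1 of ctrl and treat, 4596 on ctrl day 3 and 674.3 to 1371 in the other grafts, with 4 to 6 detected in sham and 10 or 11 in the grafts, and Ngp at 0 in all 9 samples. Their part in the result was not tested. In neutrophil-like cells C5ar1 was at 452 and 378 CPM in sham 1 and 3, 331, 317 and 167 in ctrl and 299.8, 251 and 208 in treat, so every graft sample lay below both sham samples, which had 67 and 37 cells. Cluster 40 was 81.1% of these cells in sham 3 and under 1% in the grafts, which were mostly cluster 0, with 35.6% of ctrl day 1 in cluster 27. In macrophage-like cells it was at 17.3, 162 and 213 CPM in sham 1, 2 and 3, 146, 214 and 101 in ctrl on days 1, 3 and 7 and 161, 102 and 84.3 in treat on the same days, with overlapping groups.

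The shares of myeloid cells are given here beside the all-cell level of C5ar1, and their part in it was not tested. Neutrophil-like cells were 2.94%, 0.108% and 0.333% of cells in sham, 26.4%, 31.4% and 7.81% in ctrl and 12.1%, 7.39% and 3.74% in treat. Monocyte-like cells were 3.91%, 0.941% and 1.15% in sham, 8.17%, 19.2% and 16.1% in ctrl and 11.1%, 23.6% and 12.3% in treat. Macrophage-like cells held 93.1% and 86.4% of C5ar1 UMIs in sham 2 and 3, and 3.99% in ctrl day 1. Sham 1 differed from the other sham samples, with 67 macrophage-like cells and C5ar1 at 17.3 CPM in them, the lowest of the 9 samples. The shares of sham 2 and 3 therefore do not hold for all sham samples.

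Each day against sham, 29 of 189 tests of member and class passed, 28 higher and 1 lower, where 2.27% of all gene tests passed. On day 1, 1 of 32 pairs passed in ctrl and 1 of 32 in treat (5.28% and 2.53% of all gene tests). On day 3 it was 3 of 29 in ctrl and 10 of 32 in treat (0.997% and 1.48%). On day 7 it was 6 of 32 in ctrl and 8 of 32 in treat (1.99% and 1.15%). These comparisons share the sham samples, and each sets 1 sample against sham, so the spread of the day itself was not measured. With days joined, 2 of 32 pairs passed in ctrl and 2 in treat. These counts include tests of C3 in goblet-like, Cfb in macrophage-like and monocyte-like and C1r and C3ar1 in monocyte-like cells. Those pairs had few UMIs in sham and met the limit through the grafts. Every one of them is counted on treat day 3. C3 in goblet-like cells is the only pair counted on treat day 1, and it is counted on day 7 of both groups. The counts are therefore a description and are not read against the shares of all genes.

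Treat was compared with ctrl to ask whether arterial ligation changed complement expression after LT. No member passed over all cells and none of the 32 pairs did (0.0% of all genes over all cells and 0.0% in the classes passed). DESeq2 called 10 genes over all cells and none of the members. At an unadjusted p under 0.05 there were 2 members and 578 genes over all cells, and 2 of the 32 pairs in the classes, beside 3681 of 82683 gene tests there. C3 in BEC-like cells was higher in treat than in ctrl on each day, 565 against 292, 924 against 635 and 1216 against 665 CPM (log2 0.75 ± 0.33, adjusted p = 0.58). With each library as a sample, the differences on days 1, 3 and 7 were 0.76, 1.09 and 0.90 on the log2 scale (adjusted p = 0.664, 0.428 and 1). C5ar1 over all cells was lower in treat on each day (log2 -1.16 ± 0.42, adjusted p = 1), and C3ar1 likewise (log2 -1.29 ± 0.46, adjusted p = 1). C1s in LEC-like cells was at log2 1.45 ± 1.15, adjusted p = 0.986, and with day as a block, in a fit of ctrl and treat alone, it passed (log2 1.25, adjusted p = 0.0433). That fit held only the samples of days 1 and 7, since ctrl day 3 was not used and treat day 3 then had no partner. It had 1 residual degree of freedom. With libraries as samples C1s in LEC-like cells differed by log2 0.38 on day 1 (adjusted p = 1) and 0.59 on day 7 (adjusted p = 0.985).

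On day 1, with libraries as samples, C1r and C1s summed over all cells were higher in treat (log2 2.59 ± 0.45, adjusted p = 0.006 and log2 3.41 ± 0.56, adjusted p = 0.0059), where 10.3% of genes passed. Each group had 1 sample on day 1, so these p-values hold only the spread between the libraries of a sample. Fibroblast-like cells were 23.9% of cells in treat day 1 and 2.65% in ctrl day 1. In fibroblast-like cells themselves C1s was at 979 and 460.3 CPM, and no member passed within a class on any day. Over all cells no member passed on day 3 or day 7, where 0.0% of genes passed on each.

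Of 43 other complement genes listed, 41 had a feature and 40 were tested over all cells. Between ctrl and sham 3 were higher and 3 lower, where 9.5% of all genes passed, with a median log2 difference of 0.14 over the list and 0.00079 over all genes. Higher were Itgam (log2 2.18) and Itgb2 (2.11), the chains of complement receptor CR3, and Cfp (1.76), properdin, which stabilises the convertase of the alternative pathway. Lower were the lectins Colec11 (-4.26) and Mbl1 (-3.15) and the regulator Susd4 (-1.67). Colec11 was at 1.56 to 10.02 CPM in sham and 0.218 to 0.285 in ctrl. Mbl1 was at 0.28 to 0.629 CPM in sham and 0.0104 to 0.0678 in ctrl, and Susd4 at 1.67 to 3.57 and 0.477 to 0.695. These ctrl levels were near the floor, most of all for Mbl1, so the sizes of the falls rest on few UMIs. No list gene passed between treat and sham or between treat and ctrl over all cells.

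Within classes, C6, a terminal component, rose in macrophage-like cells in ctrl (log2 2.90) from 0 to 6.33 CPM in sham to 7.55 to 54.9 in ctrl. Cd55, which speeds convertase decay, fell there (log2 -2.17), at 0 to 24.8 CPM in sham and 2.12 to 4.53 in ctrl, so that the groups overlapped. In that comparison 11.5% of genes passed. In BEC-like cells Cd55 rose in ctrl (log2 1.20) from 52 to 82.3 CPM in sham to 114 to 177 in ctrl, and C4bpa, a chain of the C4b-binding protein, rose in ctrl (log2 1.86) and treat (log2 2.84). In fibroblast-like cells Colec11 fell in ctrl (log2 -4.26), from 11.1 to 19.04 CPM in sham to 0.237 to 1.07 in ctrl. Fcnb, a ficolin, was also past the threshold there (log2 3.97), but at 0 to 0.122 CPM in sham and 1.06 to 2.12 CPM in ctrl, from 9 to 18 UMIs a sample, beside 760.03 to 1882 CPM in monocyte-like cells, and the part of free RNA in it was not tested. In fibroblast-like cells 1.1% of genes passed. In EC-like cells Thbd, thrombomodulin, fell (log2 -1.63), where 0.876% passed, and these 3 calls were in ctrl. Within BEC-like cells 2 of 32 list genes tested were higher in ctrl and 0 lower, where 4.65% of genes passed.

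Across the 14 classes, the genes whose mean log2(CPM + 1) was most like that of each member were found by Pearson correlation among 16127 genes, as a description over classes of the same libraries. C1qa, C1qb and C1qc were most like each other (r = 0.99 for each pair), then Ms4a7 for C1qa and C1qb and Cd163 for C1qc (r = 0.98), both of them markers of macrophages. Ms4a7, Cd163 and Folr2 were on the macrophage list that named the classes, so their matches are no separate evidence of cell type. C1r was most like Kcnd1 (0.96), Serping1 (0.94), which encodes the C1 inhibitor, and Fzd1 (0.94), and C1s like Plod2, Scara3 and Lrp3 (0.98). C3 was most like Kirrel3 (0.91), Cebpa (0.89) and Tlr5 (0.89), and Cfb like Tnfaip2 (0.83), Lrp1 (0.82) and Cxcl14 (0.81). C3ar1 was most like Gdf3 (1.00), Siglec1 and Folr2 (0.99), and C5ar1 like Aoah and Arl11 (0.97) and Clec4a2 (0.96).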

How the data were processed

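UMI counts per gene and barcode were deposited by the authors as 1 unfiltered matrix per library, with no normalization. The submitters' processing notes name Cell Ranger 5.0.1 and Seurat 3.2.0, and the genome build is not given in the sources used here. A further library of treat day 3 was not analysed here. Cells needed 400 to 6000 genes, less than 25% of UMIs from mitochondria and less than 3% from hemoglobin genes, and the 7.5% with the highest simulated-doublet score per library were removed. Cells were clustered (scanpy 1.11.5, Leiden resolution 0.9, 30 principal components of 2000 variable genes, complement genes left out) and named X-like from marker lists by a rule settled after the clusters' leading genes, but not the members' values, were seen. A cluster stayed unnamed where fewer than 3 markers of a class were detected or another class was close or had more leading genes. The same held where few UMIs came without a leading marker, or where pancreatic zymogen genes led. Unnamed clusters could thus hold many markers, such as cluster 16 with 9 of 10 tuft and 7 of 13 BEC markers.

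UMIs were summed per sample and class of at least 20 cells and tested with edgeR 4.0.16 (TMM, filterByExpr, glmQLFit and glmQLFTest, R 4.3.3), with Benjamini-Hochberg adjustment over all genes of a fit. Values after ± are standard errors of the log2 difference. DESeq2 1.42.0 and the settings named in the closing section were alternatives. Empty barcodes (100 UMIs or fewer) gave the free RNA. The precision of each value is limited by 8972668 to 191639236 UMIs per sample. Scripts were tested on simulated data.

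The members and lists were chosen with earlier results of these data known. The limit of at least 100 UMIs for a pair of member and class was set after the data were seen. All members were named. Other complement genes were named where called in a comparison of groups, at most 12 by smallest adjusted p. A result of that list is not reported here. Mbl2 and Cd59b had no feature. Cfb has 2 features, which were summed (9286 and 0 UMIs over all barcodes).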

Additional observations from a re-analysis of the deposited data

How the results depend on the processing

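Of the recomputed log2 differences of single members that were called or at least 1 in size, 705 kept direction and side of the threshold, 31 newly passed, 50 no longer passed and 4 uncalled ones changed sign. These were Cfb in BEC-like cells, treat against sham, within cluster 3 (log2 -0.19), C1s in EC-like and LEC-like cells, ctrl against sham without ctrl day 7 (-0.51 and -0.97, in ranges up to 2.71 and 2.91 with another sample left out), and C1qa in monocyte-like cells, treat against sham, within cluster 14 (-0.997). Smaller differences were not counted here, and some of those changed sign too, such as C1qb (-1.53) and C1qc (-1.99) in monocyte-like cells, treat against sham, within cluster 14. The cause was not tested. The 705 include differences that were not called in the main fit and stayed so. The 50 fell in 6 results, which were all those called between groups, so each of them lost its call in some setting.

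Counts of members called changed with the setting. Over all cells, ctrl against sham gave 2, or 1 with library size in place of TMM (C3 lost, as it was with libraries as samples, adjusted p = 0.057), and 0 to 3 with a sample left out. Treat against sham gave 0, or 2 with DESeq2 and 1 with libraries as samples or library size, and 0 to 1 with a sample left out. Treat against ctrl gave 0, or 2 within day 1 with libraries as samples. Single days gave 0, or 7 with libraries as samples. Within cell types, ctrl against sham gave 2, or 5 with DESeq2, 0 at Leiden resolution 2, 1 with libraries as samples, library size or only the 2 groups compared, 9 with no filter on low counts, and 0 to 3 with a sample left out. Treat against sham gave 2, or 6 with DESeq2, 1 at resolution 2, with libraries as samples or with free RNA subtracted, 0 with library size, 7 with no filter, and 0 to 3 with a sample left out. Treat against ctrl gave 0, or 1 with day as replicate block or with no filter. The block changed no other call. At resolution 2 BEC-like cells held 38.8% of C3 UMIs in place of 78.0%, with 43.0% in unnamed clusters, and monocyte-like cells 13.2% of C5ar1 UMIs in place of 48.2% and 6.13% of C3ar1 UMIs in place of 35.3%.

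Of all genes over all cells, 1532 were called between ctrl and sham, or 3615 with DESeq2, 2406 with library size (which shifted the median of all genes by -0.36 on the log2 scale), 562 with only the 2 groups, and 0 without ctrl day 3, sham 2 or sham 3. Between treat and sham it was 0, or 2383 with DESeq2, 677 with libraries as samples and 274 with library size. On single days, with libraries as samples, 3591, 1719 and 3626 of 16166 genes passed on ctrl days 1, 3 and 7. On the same treat days 1724, 1172 and 2074 passed, so the member calls in this setting are a description. Shares of all genes within the classes under other settings are not given, so those counts of members are a description too. Sham classes of few cells, such as 67 macrophage-like cells in sham 1, limit what could be detected.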
